A study of Homo sapiens with 12 samples.

Results

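The collagen chains are the subunits of the collagens, the proteins that form most of the fibres and sheets outside animal cells. Each collagen molecule is a trimer of alpha chains wound into a triple helix, and a type can be built from 1 gene's chain or from chains of several genes. Fibrillar collagens form the cross-banded fibres of connective tissue, type IV collagen forms the network of basement membranes, type VI collagen forms beaded filaments, and the FACIT collagens (fibril-associated collagens with interrupted triple helices) sit on fibrils. In early human development basement membrane chains are made by epithelia such as the epiblast and endoderm, whereas fibrillar chains are made mainly by mesenchyme, the loose connective tissue cells that arise from mesoderm and neural crest.

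Expression was read on 12 Illumina bead arrays in 3 groups of 4. The first group was undifferentiated SNUhES3, a line of human embryonic stem cells (ESCs) grown on division-arrested mouse STO feeder cells in serum-replacement medium with basic FGF. The others were embryoid bodies (EBs) of the same line, floating aggregates kept for 1 week or 2 weeks in that medium without basic FGF. EBs were started by lifting ESC colonies with a bacterial collagenase, hold many cell types at once, and come from 1 line, while the ESC samples may carry feeder RNA, whose part in any value was not tested. In bulk samples, fewer cells of a type and less RNA per cell cannot be told apart.

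A gene was a member if its platform symbol began with COL and a digit and its probe had a detection p under 0.01 on at least 4 of the 12 arrays. This gave 30 members among 44 such symbols (2 of them pseudogenes of the type VI family) and among 10562 genes tested. The members were 8 fibrillar chains, 4 basement membrane chains, 3 beaded filament chains, 8 FACIT chains and 7 others. Of the 30, 18 were detected on all 12 arrays and 6 on no ESC array. Those 6, COL2A1, COL3A1, COL6A3, COL8A1, COL15A1 and COL21A1, entered through EB arrays, so an excess in EBs was partly fixed by the rule. At its edge, COL8A1 was just inside with 4 arrays, and COL9A3 was just outside with 2, both of them ESC arrays (7.53 and 7.14 were its highest values there, against at most 6.14 on any EB array). The other 13 symbols outside the rule, among them COL4A3, COL4A4, COL10A1 and COL11A2, were detected on 0 arrays.

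Values are log2 signals after background correction and quantile normalization. A gene is said to have risen or fallen where limma's adjusted p was under 0.05 and the difference was at least 1 on the log2 scale, which is 2-fold. For a gene detected nowhere in a group a bound is given, written as at least N-fold, and levels are compared between groups for 1 probe, never between probes. Such a gene is counted as risen on its fitted difference, even where its bound is under 2-fold. Mean raw intensity per array ran from 718 to 1090 and detected probes from 14045 to 15905. Both lowest values belonged to array 2 of the 2-week group. Its raw log2 signal correlated at 0.938 with a second deposited table of log2 values, against 0.998 to 0.999 for the other arrays. Arrays fell into pairs in 2 of the 3 groups: correlations within arrays 1 and 2 and within arrays 3 and 4 were 0.997 and 0.998 in ESCs, against 0.987 across the pairs, and 0.998 each in 1-week EBs, against 0.992. In 2-week EBs arrays 3 and 4 correlated at 0.998, but arrays 1 and 2 at 0.992, within the 0.990 to 0.995 across the pairs. The labels do not say what the numbers stand for, nor that each array had its own culture. A p-value here is therefore set against the scatter of these arrays, which may be technical. Each main count is therefore also given with arrays 1 and 2, and 3 and 4, of each group averaged, which leaves 2 values per group. This alternative, below called array pairs averaged, was chosen after the data were seen. In 2-week EBs it also merges arrays 1 and 2, which were no more alike than arrays across the pairs. Pluripotency markers, 8 genes with a mean of 13.56 to 13.65 on the ESC arrays, stayed bright in EBs (13.42 to 13.54 at 1 week and 13.10 to 13.20 at 2 weeks). By the rule 0 of 8 fell at either time, where only 3.07% and 6.02% of all genes fell. By the adjusted p alone 1 was lower at 1 week and 6 at 2 weeks, where 24.8% and 31.8% of all genes were.

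Many collagen chains were higher in EBs than in ESCs. In 1-week EBs 13 of the 30 members rose against ESCs and 0 fell, and at 2 weeks 20 rose and 0 fell. Over all genes tested 6.09% rose and 3.07% fell at 1 week, and 8.27% rose and 6.02% fell at 2 weeks. By the adjusted p alone 20 members were higher and 3 lower at 1 week (27.1% and 24.8% of all genes), and 22 higher and 1 lower at 2 weeks (30.7% and 31.8%). The median log2 difference of the members was 0.91 at 1 week and 1.37 at 2 weeks, against 0.01 and -0.02 over all genes. With members undetected in ESCs set at their bound, and COL8A1 left out because it has none, these medians were 0.91 and 1.35. Of the 18 members detected on all 12 arrays, 7 rose at 1 week and 13 at 2 weeks, where 2.48% and 4.28% of the genes so detected rose. With array pairs averaged, all 13 and all 20 calls were kept. Both comparisons use the same ESC arrays.

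**Figure D1:**
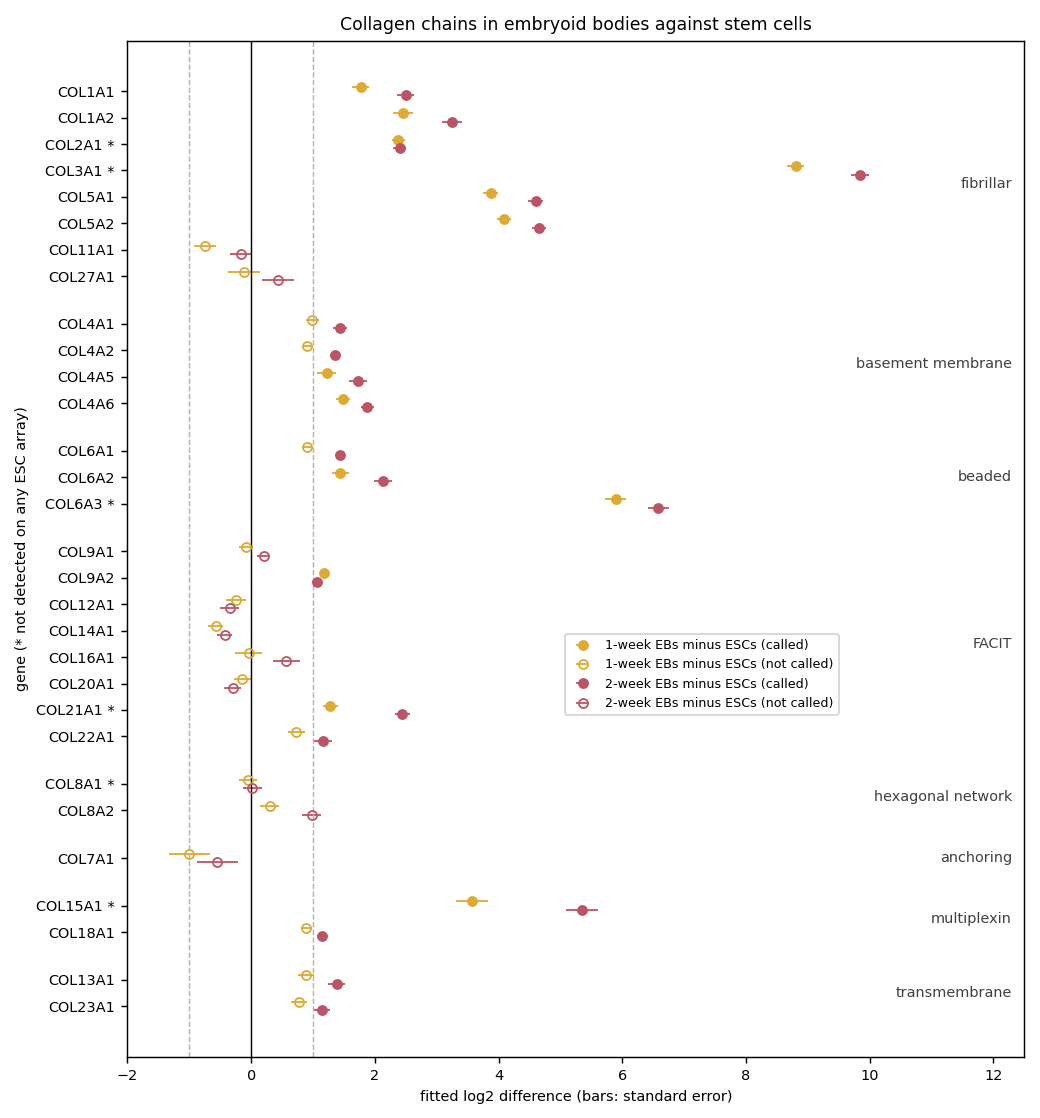
Fitted log2 differences of the 30 members between 1-week EBs and ESCs (yellow) and 2-week EBs and ESCs (red), with standard errors, grouped by class. Filled points were called, dashed lines mark the 2-fold minimum and stars mark genes detected on no ESC array. Differences range from -1 for COL7A1 to 9.84 for COL3A1.

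Among the fibrillar chains 6 of 8 rose at both times, where 6.09% and 8.27% of all genes rose. They were COL1A1, COL1A2, COL2A1, COL3A1, COL5A1 and COL5A2. Of these, COL2A1 and COL3A1 passed the detection filter only through EB arrays. COL3A1, the single chain of type III collagen of skin, vessels and other soft tissue, had the largest fitted difference. It read 5.33, 5.21, 4.93 and 5.05 on the ESC arrays, all below detection, 14.24, 14.14, 13.69 and 13.64 at 1 week and 14.97, 15.19, 14.83 and 14.88 at 2 weeks. The 3 groups did not overlap, and the rise was at least 115-fold at 1 week and at least 235-fold at 2 weeks. Because its ESC level was not measured and it entered through EB arrays, no p-value is given against ESCs.

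The type V chains, which form the core of mixed fibrils and set their diameter, had measurable ESC levels and so have folds rather than bounds. COL5A1 read 8.70, 8.88, 8.62 and 8.64 in ESCs, 12.81, 12.88, 12.32 and 12.32 at 1 week and 13.37, 13.31, 13.30 and 13.27 at 2 weeks. COL5A2 read 8.27, 8.31, 7.95 and 8.06, then 12.37, 12.48, 12.08 and 12.04, then 12.79, 12.95, 12.77 and 12.68. No group overlapped another for either chain. COL5A1 rose 14.6-fold at 1 week and 24.3-fold at 2 weeks, with log2 differences of 3.87 and 4.60 (SE 0.12). COL5A2 rose 17.1-fold and 25.1-fold, with log2 differences of 4.09 and 4.65 (SE 0.11). COL5A2 and COL3A1 are neighbouring genes on chromosome 2.

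Type I collagen, the main fibre of bone, tendon and skin, is usually built from 2 COL1A1 chains and 1 COL1A2 chain. Both genes were detected on every ESC array. COL1A1 read 10.79, 10.72, 10.36 and 10.41 in ESCs, 12.61, 12.63, 12.01 and 12.09 at 1 week and 13.11, 13.13, 13.05 and 13.01 at 2 weeks. COL1A2 read 11.39, 11.06, 10.51 and 10.50, then 13.46, 13.38, 13.16 and 13.25, then 14.12, 14.09, 14.11 and 14.13. For each chain the groups were separate and arrays 1 and 2 were the higher ones in ESCs and at 1 week. COL1A1 rose 3.40-fold and 5.66-fold, and COL1A2 rose 5.47-fold and 9.52-fold. A second probe of COL1A2 gave smaller log2 differences, 1.91 and 2.76 in place of 2.45 and 3.25.

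COL2A1, the chain of the main cartilage collagen that is also made around the notochord and by embryonic epithelia, was detected on no ESC array (5.56 to 6.13). It read 8.14, 8.01, 8.32 and 8.15 at 1 week and 8.20, 8.05, 8.24 and 8.19 at 2 weeks, a rise of at least 2.10-fold and at least 2.12-fold. The EB groups overlapped, and the second-week difference was 0.02 (SE 0.11). Of 7 cartilage markers, ACAN, MATN1, MATN4 and COMP did not pass the detection filter, HAPLN1 rose, and SOX9 and MATN3 did not pass both thresholds.

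The other 2 fibrillar members did not rise. COL11A1, the minor chain of cartilage fibrils, read 10.31, 10.29, 11.10 and 11.14 in ESCs, 10.02, 10.15, 9.86 and 9.82 at 1 week and 10.52, 10.59, 10.62 and 10.42 at 2 weeks. Its 1-week arrays lay below every ESC array with a log2 difference of -0.75 (SE 0.18), short of 2-fold. The adjusted p was 0.00302, and 0.0617 with array pairs averaged. The ESC arrays were split into a lower and a higher pair. A second probe, below detection in ESCs, differed by -0.33 and 0.21. COL27A1 read 6.79, 6.49, 7.79 and 7.96 in ESCs, 7.01, 7.39, 7.09 and 7.04 at 1 week and 7.67, 7.54, 7.70 and 7.86 at 2 weeks. Its ESC arrays were spread more widely than any difference between group means for this gene (-0.12 and 0.44).

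**Figure D2:**
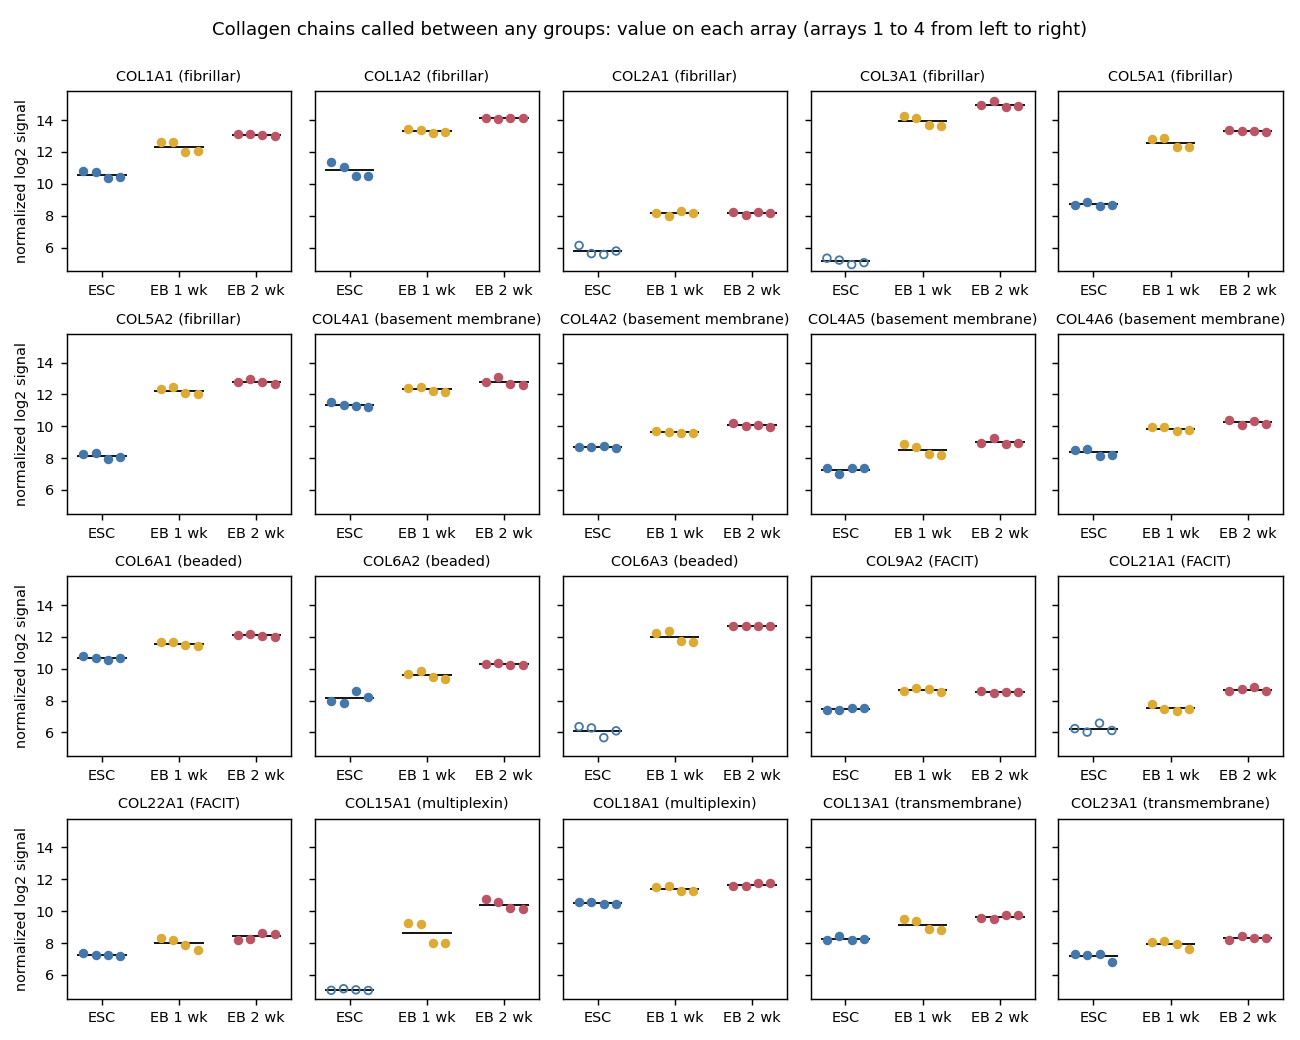
Normalized log2 signal of the 20 members called in any comparison, 1 panel per gene, with arrays 1 to 4 of each group from left to right and a bar at the group mean. Open circles are groups in which the gene was detected on no array. COL3A1, COL6A3 and COL15A1 go from below detection in ESCs to group means of 14.97, 12.68 and 10.41 at 2 weeks.

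The basement membrane chains started from a measurable ESC level and were 2.56-fold to 3.68-fold higher at 2 weeks. All 4 members, COL4A1, COL4A2, COL4A5 and COL4A6, rose at 2 weeks, and COL4A5 and COL4A6 did so at 1 week. Of all genes, 8.27% rose at 2 weeks and 6.09% at 1 week. COL4A1 and COL4A2 make the type IV trimer of nearly all basement membranes. COL4A1 read 11.50, 11.33, 11.30 and 11.22 in ESCs, 12.43, 12.49, 12.23 and 12.15 at 1 week and 12.77, 13.09, 12.68 and 12.60 at 2 weeks. COL4A2 read 8.71, 8.68, 8.76 and 8.66, then 9.70, 9.61, 9.58 and 9.56, then 10.18, 9.99, 10.10 and 9.96. Each gene's 3 groups were in order without overlap. COL4A1 was 1.99-fold higher at 1 week, just under the 2-fold minimum, and rose 2.72-fold at 2 weeks. COL4A2 was 1.88-fold higher at 1 week and rose 2.56-fold at 2 weeks.

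COL4A5 and COL4A6, whose chains form a trimer of skin and smooth muscle basement membranes, are neighbours on the X chromosome. COL4A5 read 7.35, 6.98, 7.38 and 7.38 in ESCs, 8.86, 8.68, 8.23 and 8.18 at 1 week and 8.92, 9.26, 8.89 and 8.95 at 2 weeks. COL4A6 read 8.48, 8.6, 8.16 and 8.21, then 9.95, 9.94, 9.72 and 9.75, then 10.37, 10.11, 10.35 and 10.12. Both had 3 separate groups. COL4A5 rose 2.32-fold and 3.32-fold, and COL4A6 rose 2.79-fold and 3.68-fold. COL4A3 and COL4A4, the chains of mature kidney and lung membranes, were below detection on all 12 arrays.

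COL4A1 and COL4A2 lie head to head on chromosome 13 and are read in opposite directions. Their start sites in the RefSeq table of GRCh38.p14 are 126 bases apart, so that the windows from 250 bases before to 50 after each start overlap by 226 bases. The COL4A1 window, chr13:110307108-110307407 on the minus strand, is printed because it holds most of both promoters, and was picked after values were seen. Capitals mark CG dinucleotides, of which it has 45, more than 96.5% of the 35116 promoter windows in the table (median 14). The COL4A2 window also has 45.
COL4A1: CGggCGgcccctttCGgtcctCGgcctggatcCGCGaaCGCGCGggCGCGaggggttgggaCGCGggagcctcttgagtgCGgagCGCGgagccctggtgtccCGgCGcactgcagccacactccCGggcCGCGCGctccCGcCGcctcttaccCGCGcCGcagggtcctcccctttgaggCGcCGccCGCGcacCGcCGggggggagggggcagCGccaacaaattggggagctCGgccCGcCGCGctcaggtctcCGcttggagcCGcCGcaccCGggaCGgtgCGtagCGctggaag

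The beaded filament chains differed in their ESC state. COL6A1, COL6A2 and COL6A3 encode the chains that assemble, 1 of each, into type VI collagen, the filament that links cells to the matrix around them. COL6A1 read 10.77, 10.67, 10.57 and 10.65 in ESCs, 11.69, 11.68, 11.52 and 11.42 at 1 week and 12.13, 12.19, 12.04 and 12.01 at 2 weeks. COL6A2 read 7.96, 7.87, 8.59 and 8.20, then 9.67, 9.87, 9.49 and 9.35, then 10.31, 10.36, 10.23 and 10.24. COL6A3 read 6.36, 6.28, 5.67 and 6.10, then 12.23, 12.36, 11.71 and 11.66, then 12.71, 12.69, 12.67 and 12.66. COL6A1 and COL6A2 were thus present in ESCs, whereas COL6A3 was detected on none of the 4 ESC arrays and on all 8 EB arrays. COL6A1 was 1.88-fold higher at 1 week and rose 2.69-fold at 2 weeks, COL6A2 rose 2.71-fold and 4.38-fold, and COL6A3 rose at least 30.0-fold and at least 48.3-fold. A second COL6A3 probe was also detected on no ESC array and differed by 5.92 and 6.61 on the log2 scale, against 5.89 and 6.58 for the first. A second COL6A2 probe was detected on 3 of the 4 ESC arrays, with a mean of 7.23 there, near background. It differed by 1.47 and 1.94.

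The windows of COL6A2 and COL6A3 are printed because their genes serve 1 trimer, and COL6A2 was detected on all 4 ESC arrays and COL6A3 on none. They were picked, and CG dinucleotides marked in capitals, after their values were seen. COL6A2, chr21:46097862-46098161 on the plus strand, has 36 CG dinucleotides, and COL6A3, chr2:237414115-237414414 on the minus strand, has 4.
COL6A2: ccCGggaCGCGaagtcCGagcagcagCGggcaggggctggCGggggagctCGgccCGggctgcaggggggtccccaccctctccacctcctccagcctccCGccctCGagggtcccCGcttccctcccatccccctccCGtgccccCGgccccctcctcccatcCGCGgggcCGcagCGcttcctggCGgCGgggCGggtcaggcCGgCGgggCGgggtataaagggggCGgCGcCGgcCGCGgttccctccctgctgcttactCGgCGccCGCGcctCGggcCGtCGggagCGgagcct
COL6A3: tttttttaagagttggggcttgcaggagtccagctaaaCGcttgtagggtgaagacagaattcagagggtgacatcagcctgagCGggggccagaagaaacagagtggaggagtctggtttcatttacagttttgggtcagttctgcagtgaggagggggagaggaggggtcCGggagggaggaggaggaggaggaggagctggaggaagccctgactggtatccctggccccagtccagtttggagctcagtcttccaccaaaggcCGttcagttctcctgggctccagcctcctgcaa

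Whether CG content goes with detection in ESCs was not tested. The table matched 20 of the 30 by symbol, and 15 of the 20 had more CG dinucleotides than the median window. COL15A1, also undetected in ESCs, has 45, and COL21A1, undetected too, has 14. Matched members detected on at least 1 ESC array ranged from 7 (COL4A6) to 46 (COL18A1). Where a member had more than 1 window, as COL21A1 did, the first listed was used. On both strands TATAAA was found in 3 of the 20 windows against 11.5% of all windows, CCAAT in 6 of 20 against 34.6% and GGGCGG in 15 of 20 against 45.0%. These are matches of letters only.

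The FACIT chains differed among themselves. COL9A2 and COL21A1 rose at both times and COL22A1 at 2 weeks, 3 of 8, where 6.09% of all genes rose at 1 week and 8.27% at 2 weeks. The class median was -0.06 at 1 week and 0.39 at 2 weeks. COL21A1, a fibril-associated chain found in vessel walls, read 6.24, 6.02, 6.58 and 6.12 in ESCs, all undetected, 7.80, 7.46, 7.33 and 7.5 at 1 week and 8.58, 8.73, 8.84 and 8.6 at 2 weeks. It rose at least 1.35-fold and at least 3.03-fold, with no overlap between groups. The 1-week bound is under 2-fold, so a 2-fold rise is not shown at that time. COL22A1, found at tissue junctions, read 7.35, 7.24, 7.26 and 7.17 in ESCs, 8.31, 8.16, 7.88 and 7.58 at 1 week and 8.20, 8.24, 8.63 and 8.57 at 2 weeks. Its EB groups overlapped. It was 1.66-fold higher at 1 week and rose 2.23-fold at 2 weeks.

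COL9A1 and COL9A2 encode chains of type IX collagen, which coats cartilage fibrils. COL9A2 read 7.42, 7.38, 7.56 and 7.53 in ESCs, 8.61, 8.76, 8.72 and 8.51 at 1 week and 8.58, 8.45, 8.56 and 8.55 at 2 weeks, a rise of 2.26-fold and 2.09-fold. COL9A1 read 9.58, 9.46, 9.37 and 9.37, then 9.57, 9.48, 9.14 and 9.27, then 9.55, 9.89, 9.62 and 9.53. Its groups overlapped, with differences of -0.08 and 0.20 from ESCs. COL14A1, a chain of mature dense tissue, was lower in EBs without passing the fold minimum: 7.80, 7.78, 7.47 and 7.49 in ESCs against 7.31, 6.94, 6.92 and 7.11 at 1 week and 7.31, 7.38, 6.95 and 7.19 at 2 weeks. The EB arrays lay below the ESC arrays, with differences of -0.57 and -0.43 (adjusted p = 0.00135 and 0.00685). With array pairs averaged these became 0.0318 and 0.0602, so the 2-week difference no longer passed. COL12A1, COL16A1 and COL20A1 gave differences between -0.35 and 0.57. COL16A1 read 7.23, 7.41, 7.28 and 7.14 in ESCs, 7.78, 7.71, 6.75 and 6.66 at 1 week and 7.82, 7.65, 7.79 and 8.09 at 2 weeks, and the lower pair of 1-week arrays did not detect it.

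Of the remaining members, the multiplexins COL15A1 and COL18A1, which carry heparan or chondroitin sulfate and lie in basement membrane zones, both rose. COL15A1 read 5.03, 5.13, 5.06 and 5.02 in ESCs, all undetected, 9.28, 9.20, 8.01 and 8.01 at 1 week and 10.76, 10.55, 10.19 and 10.14 at 2 weeks. It rose at least 2.91-fold and at least 10-fold, with 1-week arrays in a higher and a lower pair. COL18A1, the source of endostatin, read 10.56, 10.55, 10.48 and 10.48 in ESCs, 11.53, 11.59, 11.28 and 11.25 at 1 week and 11.59, 11.55, 11.74 and 11.78 at 2 weeks. It was 1.86-fold higher at 1 week and rose 2.21-fold at 2 weeks. The chains COL13A1 and COL23A1 belong to collagens that span the cell membrane. COL13A1 read 8.22, 8.44, 8.16 and 8.23 in ESCs, 9.48, 9.36, 8.90 and 8.84 at 1 week and 9.60, 9.51, 9.73 and 9.74 at 2 weeks. COL23A1 read 7.30, 7.25, 7.34 and 6.79, then 8.09, 8.15, 7.92 and 7.63, then 8.22, 8.44, 8.29 and 8.32. They rose 2.61-fold and 2.22-fold at 2 weeks, after 1.84-fold and 1.71-fold differences at 1 week, and all groups were separate. COL8A2, a chain of the network under the corneal endothelium, was 1.98-fold higher at 2 weeks, just short of the minimum, and its second probe, detected on no ESC array, differed by 1.54. COL8A1, between 6.45 and 7.12 on all arrays, differed by -0.05 and 0.02.

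COL7A1, the chain of the anchoring fibrils that fasten epithelium to connective tissue, had the most negative difference among the members. It read 9.21, 9.07, 9.49 and 9.58 in ESCs, 8.95, 8.92, 7.68 and 7.81 at 1 week and 8.36, 8.14, 9.28 and 9.37 at 2 weeks. The pairs of EB arrays ran in opposite directions: arrays 1 and 2 were the higher ones at 1 week and the lower ones at 2 weeks. The 1-week difference of -1 (SE 0.33, adjusted p = 0.0206) fell just short of the fold minimum. With array pairs averaged its adjusted p was 0.143. Between the EB groups the difference was -0.69 from the first pair of arrays in each group and 1.58 from the other pair, so no direction can be given.

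In the second week the increase was small and spread over many chains. Between 1-week and 2-week EBs 3 members rose, COL3A1, COL15A1 and COL21A1, and 0 fell, where 0.881% of all genes rose and 0.502% fell. None of the 18 members detected on all 12 arrays was among them, against 0.373% of such genes. COL15A1 rose 3.44-fold (log2 1.78, SE 0.26, adjusted p = 0.00028), COL21A1 2.24-fold (1.17, SE 0.12, adjusted p = 2.01e-05) and COL3A1 2.05-fold (1.04, SE 0.14, adjusted p = 0.000139). The COL3A1 call sits at the fold minimum: without array 3 or array 4 of the 1-week group, without array 2 of the 2-week group, with equal-median scaling, on arrays 1 and 2 alone, or on the deposited log2 table, it was lost, and the log2 difference stayed at 0.94 or more when 1 array was left out. On the deposited log2 table the COL15A1 call was lost too (1.16, adjusted p = 0.103). Without the fold minimum 18 members passed the adjusted p upward and 0 downward, where 12.4% of all genes passed upward and 14.1% downward. Among the 18 were all 4 basement membrane and all 3 beaded chains, with differences of 0.40 to 0.69. With array pairs averaged, those 18 became 3, the same genes that rose by the rule, where 2.56% of all genes passed upward.

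Within trimers, partner chains were compared by the difference between their changes. For 8 pairs of chains and 3 comparisons, chosen after the data were seen, an exact two-sided permutation test was run that treats all arrays of a group as separate samples, whose smallest possible p is 0.0286. No adjusted p over the 24 tests was below 0.0686, so none passed at 0.05. With so few arrays, a test could pass only if many of the 24 reached the smallest p together. The tests therefore cannot decide whether partner chains changed alike, and the gaps below are given as sizes. COL4A1 and COL4A2 differed in their change by -0.08 (SE 0.08) at 1 week and -0.09 (SE 0.14) at 2 weeks, and COL5A1 and COL5A2 by 0.22 (SE 0.07) and 0.05 (SE 0.07). The change of COL9A2 was larger than that of COL9A1 by 1.26 (SE 0.14) and 0.86 (SE 0.14), with exact p = 0.0286 each.

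The widest gap among these pairs lay within type VI. The measured change of COL6A3 was larger than that of COL6A1 by 4.98 (SE 0.17) at 1 week and 5.15 (SE 0.12) at 2 weeks. COL6A3 was below background in ESCs, so these gaps and their SEs rest on an unmeasured ESC level. At its bound COL6A3 rose at least 30.0-fold and at least 48.3-fold, beside 1.88-fold and 2.69-fold for COL6A1. In the second week, when both were detected, the gap was 0.17 (SE 0.12). COL1A2 changed more than COL1A1 by 0.69 (SE 0.16) and 0.75 (SE 0.12), but its second probe gave 0.14 (SE 0.11) and 0.25 (SE 0.12), so this gap depends on the probe. A change on the log2 scale is that of a probe's signal and not a ratio of chains.

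**Figure D3:**
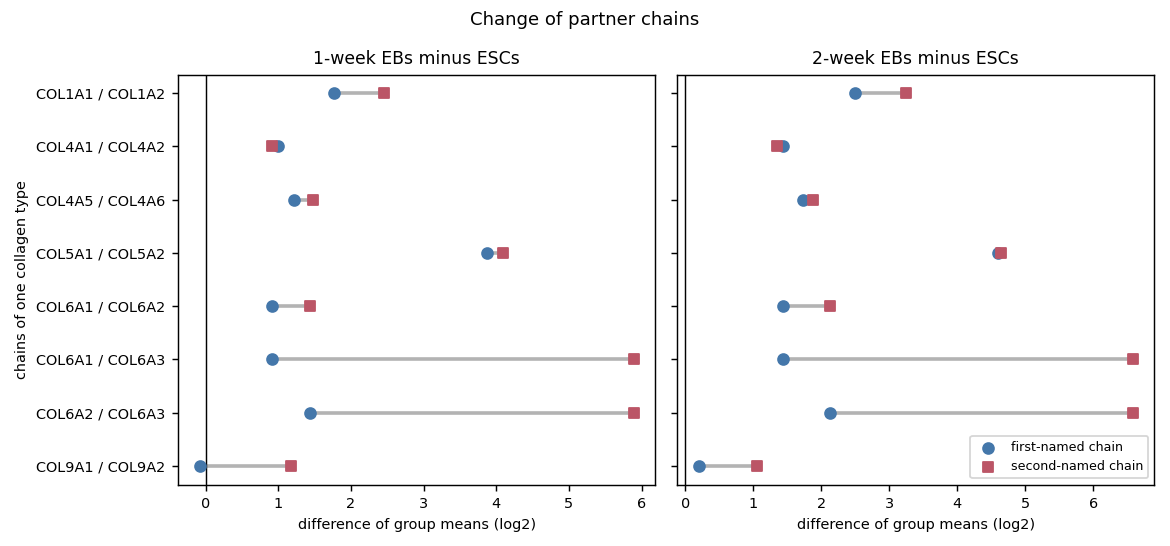
Log2 difference of group means for chains of 1 collagen type, at 1 week (left) and 2 weeks (right) against ESCs, with the first-named chain as a circle and the second as a square joined by a line. COL4A1 and COL4A2 nearly coincide, with changes of 0.99 and 0.91 at 1 week. COL6A3, detected on no ESC array, lies at 5.89 beside COL6A1 at 0.91, also at 1 week.

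Genes for the enzymes and chaperones that prepare collagen inside the cell mostly stayed within 2-fold. Of 19 such genes on the array 18 were tested, and 0 rose and 1 fell at both times, with list medians of 0.08 and 0.16 on the log2 scale. Over all genes tested 6.09% rose and 3.07% fell at 1 week, and 8.27% rose and 6.02% fell at 2 weeks. For a list of this size, so few calls are near the share of all genes. Without the fold minimum 5 passed upward and 3 downward at 1 week, and 9 upward and 2 downward at 2 weeks. Of all genes 27.1% and 30.7% passed upward, and 24.8% and 31.8% downward. SERPINH1, the collagen chaperone HSP47, read 12.01, 11.90, 12.08 and 11.96 in ESCs, 12.52, 12.46, 12.48 and 12.48 at 1 week and 12.81, 12.89, 12.81 and 12.78 at 2 weeks. Its groups were separate, with 1.42-fold and 1.78-fold differences. P3H2, a prolyl 3-hydroxylase that modifies mainly type IV collagen, was the gene that fell: 13, 13.15, 13.04 and 13.03 in ESCs, 11.70, 11.75, 11.46 and 11.41 at 1 week and 11.70, 11.61, 11.69 and 11.65 at 2 weeks. It was lower by 1.48 (SE 0.08, adjusted p = 3.54e-09) and by 1.39 (SE 0.08, adjusted p = 3.99e-09) on the log2 scale. Other probes of P4HA1, PLOD2, CRTAP and FKBP14 differed in sign from the one used in at least 1 comparison. For PLOD2, a lysyl hydroxylase, 1 other probe was higher by 1.12 at 2 weeks, past 2-fold, where the probe used gave 0.25 and another gave -0.07.

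Outside the cell, 7 of 13 genes on the array for cleaving and cross-linking collagen were tested, and 4 rose at both times and 0 fell. Over all genes tested 6.09% rose and 3.07% fell at 1 week, and 8.27% rose and 6.02% fell at 2 weeks. The 4 that rose were BMP1, which removes the C-terminal propeptide, and the cross-linking oxidases LOX, LOXL1 and LOXL4. LOXL1 and LOXL4 were detected on no ESC array and so passed the detection filter through EB arrays. LOX read 7.92, 8.03, 7.49 and 7.45 in ESCs, 9.30, 9.34, 9.15 and 9.22 at 1 week and 10.01, 9.88, 10.18 and 10.02 at 2 weeks, rising 2.89-fold and 4.93-fold. LOXL4 rose at least 1.5-fold and at least 3.72-fold, and again in the second week by 2.48-fold. Its 1-week bound is also under 2-fold. BMP1 rose 2.37-fold and 3.60-fold. Its enhancer PCOLCE was 1.37-fold lower at 1 week and PCOLCE2 was 1.35-fold higher, both short of the minimum.

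Of 10 receptors on the array 6 were tested, and 2 rose at both times, where 6.09% and 8.27% of all genes rose. DDR2 passed the detection filter through EB arrays only. DDR2, the discoidin receptor kinase for fibrillar collagen, went from undetected in ESCs (5.17 to 5.35) to 8.78 to 9.17 at 1 week and 9.47 to 9.65 at 2 weeks, at least 3.55-fold and at least 5.57-fold. ADGRG1, an adhesion receptor that binds type III collagen, rose 3.72-fold and 4.44-fold. DDR1, the related kinase of epithelia, was 1.31-fold lower at 1 week, and ITGB1, the beta chain shared by the collagen-binding integrins, was 1.36-fold higher, neither reaching 2-fold. The integrin chain ITGA2 was 1.23-fold lower at 1 week and 1.66-fold lower at 2 weeks, also short of 2-fold. SERPINH1, BMP1, PCOLCE, PCOLCE2, DDR1, ITGB1 and ITGA2 were singled out after their values were seen.

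**Figure D4:**
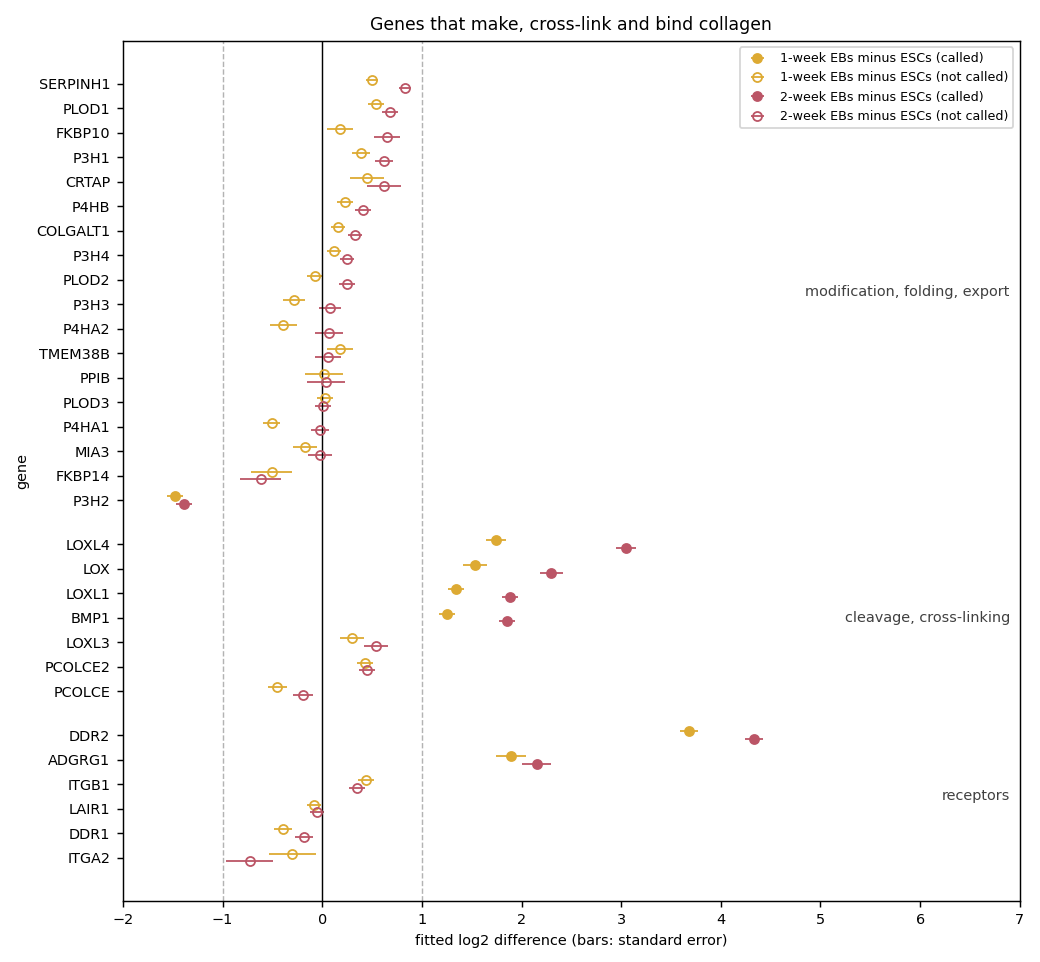
Fitted log2 differences with standard errors for 31 genes that modify and fold, cleave and cross-link, or bind collagen, at 1 week (yellow) and 2 weeks (red) against ESCs. Filled points were called. Most folding genes lie within 1 of 0, with P3H2 at -1.48 and -1.39, while LOXL4 reaches 3.05 and DDR2 4.33.

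Markers of cell types that can make these chains moved as well. Beside the counts below, 6.09% of all genes tested rose at 1 week and 8.27% at 2 weeks. Of 10 mesenchymal markers 8 rose at both times, where 6 were detected on no ESC array, and the mean over the list ran from 6.67 to 6.85 in ESCs, 9.99 to 10.41 at 1 week and 10.59 to 10.66 at 2 weeks. The mesenchymal markers that did not rise were TWIST1, with differences of 0.14 and -0.01, and THY1, with -0.26 and -0.35. THY1 was lower by the adjusted p alone at both times. Visceral endoderm markers rose in 6 of 6, with 5 detected on no ESC array (list means of 5.68 to 5.93, then 11.05 to 11.13, then 11.24 to 11.38). Endothelial markers rose in 4 of 6 at both times, with 3 detected on no ESC array. Parietal endoderm markers rose in 1 of 5 at 1 week and 2 of 5 at 2 weeks. Neural markers rose in 3 of 6 at 1 week and 4 of 6 at 2 weeks. Each of these last lists had 1 gene detected on no ESC array. At 1 week ESAM (endothelial) was below detection in both groups and so shows no measured rise. MEOX1 (mesenchymal) and PAX6 (neural) were then detected on 2 of the 4 EB arrays and no ESC array. Their 1-week means of 6.83 and 6.82 were too near background for a bound. The part of these marker lists in the collagen values was not tested.

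The 1-week group was split along its array numbers. In it 23 of 30 members read higher on both arrays 1 and 2 than on arrays 3 and 4, and 1 read lower, where 34.5% and 27.9% of all genes did so. The median difference between these pairs was 0.31 for the members and 0.02 for all genes, with 1.23 for COL15A1, 1.19 for COL7A1 and 1.04 for COL16A1. In ESCs the counts were 13 and 7, where 39.7% and 27.0% of all genes did so, and in 2-week EBs 11 and 6, where 23.3% and 22.2% did. Mesenchymal markers ran the same way at 1 week, with list means of 10.34 and 10.41 against 10.02 and 9.99, and neural markers the other way, with 8.84 and 8.85 against 9.29 and 9.28. Their part in the split was not tested. Because members share their arrays, these counts describe 4 arrays and not 30 separate events.

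**Figure D5:**
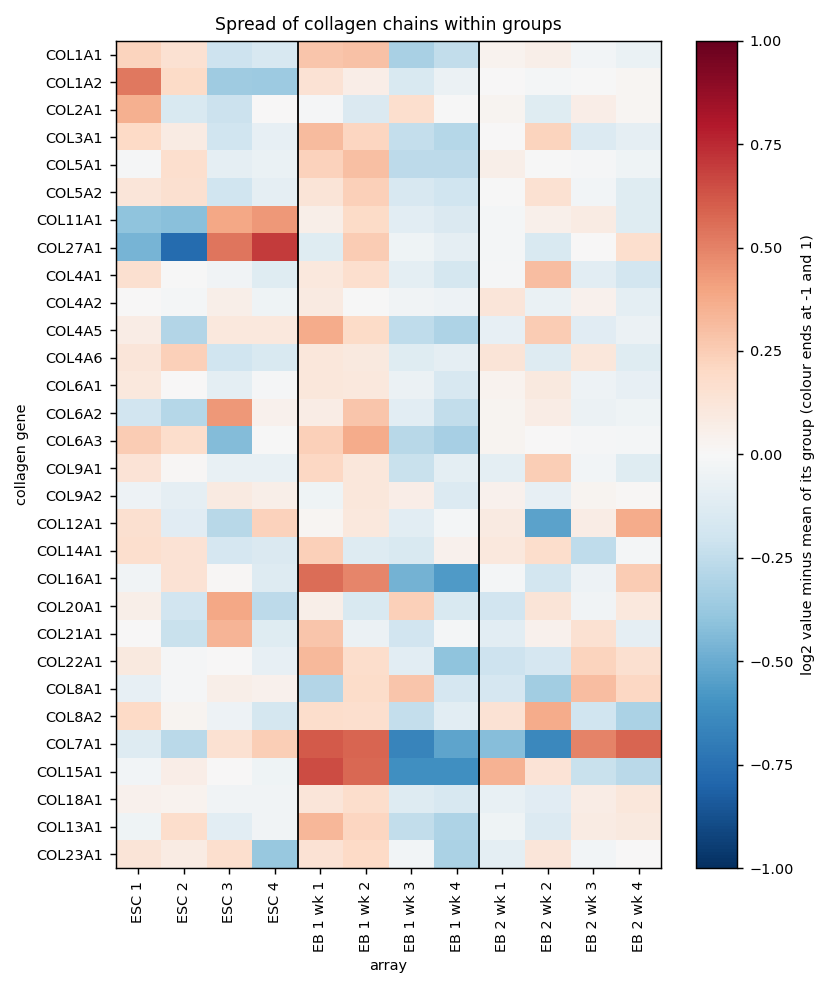
Deviation of each member's log2 value from the mean of its group on the 12 arrays, red above and blue below, with colours ending at -1 and 1. In 1-week EBs arrays 1 and 2 are red and arrays 3 and 4 blue for most members, and COL7A1 turns over between the 1-week and 2-week groups.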

How the data were processed

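Per the labels' protocols, total RNA was taken with a column kit, checked on a Bioanalyser and labelled with Cy3. The deposited table held non-normalized signal intensity per probe, with detection p-values, per the file headers. A second deposited table held log2 values, whose making is not given in the sources used here. All per-sample columns were used.

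In R 4.3.3, limma 3.58.1 (neqc) corrected background from the detection p-values, added an offset of 16, normalized by quantiles and took log2. This removes any shift of most genes and shrinks differences of dim probes. Of 48803 probes, 15921 passed the detection filter and 13586 of those had 1 symbol. The probe with the highest mean stood for its gene, leaving 10562 genes. All 12 arrays entered 1 fit (lmFit, eBayes), adjusted by Benjamini-Hochberg over all genes of a comparison. The script was tested on simulated data. A bound sets the measured mean against a floor per array, the lowest signal of a detected probe (6.67 to 7.28) or the undetected probe's signal if that was higher. Named genes were all members and, per pathway list and comparison, the 3 called genes with the largest difference and any called against the majority. The members and lists were chosen with earlier results of these data known. Deviations of same-numbered arrays correlated at 0.14 to 0.24 between ESCs and 1-week EBs, and at -0.09 to 0.14 in the other comparisons. Differently numbered arrays were not compared between groups, so these values cannot show whether the numbers pair single arrays. The fit without a replicate block is reported, and the block changed no member's call. No 2 arrays held identical values.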

Additional observations from a re-analysis of the deposited data

Results flagged for a closer look

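In 3 of 90 groups of 4 arrays, 1 array stood far from the others, where chance gives about 1 in 20. COL23A1 read 6.79 on ESC array 4 against 7.25 to 7.34 on the other ESC arrays. COL4A5 read 6.98 on ESC array 2 against 7.35 to 7.38, and each of these genes was detected on 3 of the 4 ESC arrays. COL4A5 also read 9.26 on array 2 of the 2-week group against 8.89 to 8.95. Leaving out any single array kept the COL4A5 differences at 1.09 to 1.32 and 1.64 to 1.77, and those of COL23A1 at 0.65 to 0.88 and 1.02 to 1.20.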

How the results depend on the processing

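With the replicate number as a block, counts of members called stayed at 13, 20 and 3 and medians at 0.91, 1.37 and 0.51, in the order 1 week against ESCs, 2 weeks against ESCs and 2 weeks against 1 week. Over all genes the block left 967, 1509 and 146 calls, as without it. The same held for array pairs as a random block (consensus correlation 0.54), where members passing upward with no fold minimum in the second week went from 18 to 13. Equal-median scaling moved the median of all genes from 0.01 to 0.13 at 1 week and from -0.01 to -0.12 in the second week, and the member median at 1 week to 1.08. The cause of the changes below was not tested, except where fewer genes or arrays entered.

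On the deposited log2 table the member medians were 0.79 and 1.30, with 10 of 13, 18 of 20 and 1 of 3 calls kept. COL21A1, COL4A5 and COL9A2 were lost at 1 week, COL13A1 and COL9A2 at 2 weeks, and COL15A1 and COL3A1 in the second week. With no detection filter all 44 symbols gave medians of 0.18 and 0.72. With no fold minimum members called were 23 (20 higher, 3 lower) at 1 week and 18 in the second week. The list of modifying and folding genes then had 8, 11 and 6 calls, that of cleaving and cross-linking 4 in the second week, and receptors 4, 4 and 1. Members detected on all 12 arrays gave 7, 13 and 0 calls. Arrays 1 and 2 alone gave a median of 1.31 at 2 weeks, lost COL22A1 there and lost COL3A1 in the second week. Arrays 3 and 4 alone lost COL4A5 at 1 week, gave 2 calls for modifying genes at 2 weeks, and 5 members called (adding COL7A1 and COL16A1) with a median of 0.67 in the second week. With array pairs averaged all calls were kept. With each 1 array left out, member calls ran from 13 to 15, 20 to 21 and 2 to 3, and medians from 0.88 to 0.97, 1.35 to 1.39 and 0.42 to 0.58.

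Differences that changed sign were not called in the reported fit. At 1 week against ESCs, equal-median scaling gave COL16A1 0.16, COL20A1 0.05, COL27A1 0.08, COL8A1 0.13 and COL9A1 0.10, the deposited table COL16A1 0.02, and arrays 1 and 2 COL16A1 0.43, COL27A1 0.56 and COL9A1 0.00. At 2 weeks against ESCs, COL8A1 was -0.24 on the deposited table and -0.18 on arrays 1 and 2, COL11A1 was 0.02 as a mean of probes and 0.25 on arrays 1 and 2, and COL27A1 was -0.09 on arrays 3 and 4. In the second week, scaling gave COL2A1 -0.07 and P3H2 -0.05, and the deposited table COL20A1 0.06, COL8A1 -0.18 and COL9A2 0.02. Arrays 1 and 2 gave COL16A1 -0.01, COL22A1 -0.01, COL7A1 -0.69, COL8A1 -0.13 and P3H2 -0.07, and arrays 3 and 4 gave COL12A1 0.18 and COL2A1 -0.01. With 1 array left out, COL16A1 ran from -0.23 to 0.15, COL27A1 from -0.38 to 0.11 and COL8A1 from -0.14 to 0.05 at 1 week, COL8A1 from -0.08 to 0.14 at 2 weeks, and COL12A1 from -0.22 to 0.08, COL2A1 from -0.03 to 0.07 and COL8A1 from -0.03 to 0.19 in the second week. Leaving out 1 array also moved COL4A1 (0.93 to 1.05) and COL7A1 (-1.20 to -0.78) at 1 week and COL8A2 (0.86 to 1.09) at 2 weeks across the fold minimum. The number of arrays limits the precision, and dim members such as COL8A1, COL12A1 and COL20A1 lie near background.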
